A study of Homo sapiens with 22 samples.

Results

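The genes described here encode 10 proteins of the actin, myosin and tubulin cytoskeleton: the nonmuscle myosin heavy chains MYH9 and MYH10, the tropomyosins TPM1 and TPM4, the actin cross-linker ACTN1, the adhesion proteins VCL, TLN1 and ZYX, and the β-tubulins TUBB1 and TUBB6. Every region of the deposited count tables that overlapped the span of one of these genes in RefSeq (GRCh38.p14), extended by 30 kb on both sides, was taken as a member. This gave 413 of 409446 regions, of which 124 of 95436 were H3K27ac regions, 138 of 138731 Jun regions, 58 of 66168 CTCF regions and 93 of 109111 Rad21 regions. The samples were wild-type K562 cells, a human leukemia line with erythroid features, and all 3 time points were cultures of this 1 line. Cells received 25 nM PMA (a phorbol ester that makes these cells take on features of megakaryocytes) for 0, 6 or 72 h, and all groups, the 0 h controls included, were fixed with 1% formaldehyde for 10 min. Antibody-directed nuclease cleavage (abbreviated CNR in the sample titles and taken here as CUT&RUN) was made with 4 antibodies: H3K27ac, a histone mark of active promoters and enhancers; Jun, which with Fos proteins forms the AP-1 transcription factor; CTCF, an insulator protein; and Rad21, a subunit of cohesin. Each of the 11 groups had 2 libraries, and Rad21 was profiled at 0 and 72 h only.

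Megakaryocytes are the large polyploid cells of the bone marrow that shed platelets through long extensions called proplatelets. These extensions are built from bundled microtubules that contain the platelet-restricted β1-tubulin TUBB1, while actin filaments and nonmuscle myosin II pull, branch and divide them. MYH10 takes part in the division of the cytoplasm and is silenced as megakaryocytes become polyploid, whereas MYH9 is the main myosin of the platelet. TPM1 and TPM4 coat actin filaments, ACTN1 cross-links them, and TLN1, VCL and ZYX tie them to integrins at adhesion sites. Many genes of this set are targets of SRF, a transcription factor that binds a DNA element called the CArG box.

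Promoter sequences are shown for TPM4, whose start sites changed in different ways, for MYH10, whose start lost both H3K27ac and Jun, and for the CArG match of ACTN1, the gene with the largest window rise. Sequences are from RefSeq (GRCh38.p14), read 5′ to 3′ on the strand of the gene, cover the 250 bases before a start site, and carry a match to the CArG box in capitals. Of the 3 TPM4 start sites in the table, the upstream one and the first of the neighbouring downstream ones are shown. The upstream one (chr19:16067288-16067537, plus strand) carries a match that begins 173 bases before the start, and the downstream one (chr19:16076245-16076494, plus strand) has none. The MYH10 promoter (chr17:8630726-8630975, minus strand) has none either, and for ACTN1 the 30 bases around the match are shown (chr14:68977718-68977747, minus strand), which begins 171 bases before one of the ACTN1 start sites.
TPM4 upstream: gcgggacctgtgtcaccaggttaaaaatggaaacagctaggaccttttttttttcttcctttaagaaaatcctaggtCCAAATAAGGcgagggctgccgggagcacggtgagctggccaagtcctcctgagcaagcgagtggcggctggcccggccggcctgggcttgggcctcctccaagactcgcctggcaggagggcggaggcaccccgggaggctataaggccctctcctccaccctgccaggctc
TPM4 downstream: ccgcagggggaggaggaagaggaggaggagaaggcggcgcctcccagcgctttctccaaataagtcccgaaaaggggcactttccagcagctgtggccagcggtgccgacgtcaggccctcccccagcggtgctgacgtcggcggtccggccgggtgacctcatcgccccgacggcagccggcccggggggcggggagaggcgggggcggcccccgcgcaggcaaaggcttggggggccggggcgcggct
MYH10: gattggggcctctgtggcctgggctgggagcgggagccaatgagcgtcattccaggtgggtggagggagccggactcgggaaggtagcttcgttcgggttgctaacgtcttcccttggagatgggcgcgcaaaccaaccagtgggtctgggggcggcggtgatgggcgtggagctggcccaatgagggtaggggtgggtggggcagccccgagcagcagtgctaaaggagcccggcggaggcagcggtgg
ACTN1, around the match: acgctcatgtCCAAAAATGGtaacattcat
The GC content was 61.2% in the upstream TPM4 window, 74.4% in the downstream one and 67.2% in MYH10, beside a median of 58% over all promoters of the table. All 10 genes matched the promoter table, with 16 windows in all. A CArG box was found on either strand in 2 of the 16 windows (TPM4 and ACTN1) and in 1.16% of 35116 promoters. The ETS letters CCGGAAG were found in 1 (TPM1, 76 bases before the start; 8.52% of all promoters). The AP-1 letters TGANTCA (6.57% of all promoters), the cAMP response element TGACGTCA (1.65%) and the GATA letters AGATAA (9.17%) were found in none. A match is a stretch of letters and was not tested for binding, and a window without one says only that these letters are not in its 250 bases.

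Library totals ranged from 12634261 to 27266241 counts for H3K27ac, 4766421 to 18883962 for Jun, 2553677 to 6068421 for CTCF and 4398797 to 7285286 for Rad21. The Jun libraries at 72 h were the deepest of that antibody, and the share of their counts on the mitochondrial chromosome was 9.07% and 8.58%, against 24.0% and 27.7% at 0 h. Summed H3K27ac over 7 erythroid marker genes was 2618 and 2657 CPM (counts relative to each library's total after TMM scaling) at 0 h and 1303 and 1387 CPM at 72 h, and 6 of the 7 genes were called lower. Of the 5 megakaryocyte markers reported here, ITGB3 rose by 1.47 on the log2 scale at 72 h, while ITGA2B fell by 0.60, GP1BA fell by 0.75 and PF4 fell by 0.22, and GP9 differed by 0.34 ± 0.193 (adjusted p = 0.098). The sum over 3 fibroblast markers was 77.0 and 81.1 CPM at 0 h and 219.8 and 231 CPM at 72 h, with 2 of the 3 called higher. Over 2 hepatocyte markers it was 24.6 and 26.3 CPM and then 69.6 and 70.7 CPM, with 1 called higher and 1 lower. The sums did not rise for T cell (152 and 163, then 145.7 and 146.1 CPM), B cell (159 and 172, then 126 and 129 CPM) and epithelial markers (489 and 518, then 469 and 500 CPM). Some of these lists moved with time as the members did, and their part in the values below was not tested. In each fit a region or gene window was called at an adjusted p under 0.05 (edgeR quasi-likelihood test, Benjamini-Hochberg over all regions or windows of that antibody). No label says whether the 2 libraries of a group came from separate cultures, so these p-values measure the spread between 2 samples, which may be technical.

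H3K27ac over the gene windows was redistributed among the 10 genes in both directions by 72 h of PMA. A window is the sum of all regions within a gene span and its 30 kb flanks. It therefore includes promoters of neighbouring genes (CREB3, GBA2 and RGP1 beside TLN1, RAB8A and LINC01855 beside TPM4, ATP5F1E, CTSZ and PRELID3B beside TUBB1, ADK and AP3M1 beside VCL, FAM131B-AS2 at ZYX). Of the 10 windows, 9 were called at 72 h against 0 h, 5 higher (ACTN1, TPM4, ZYX, MYH9 and TUBB6) and 4 lower (MYH10, TUBB1, TPM1 and VCL), beside 87.9% of 43227 gene windows (35.4% higher and 52.5% lower). The share called was near that of all windows. The median log2 fold change of the 10 was 0.04, beside -0.30 over all windows. At 6 h against 0 h 9 were called as well, 4 higher and 5 lower (75.4% of all windows called), and at 72 h against 6 h 6 were called, 5 higher and 1 lower (73.2%; 34.9% higher and 38.3% lower). Scaling on regions where all libraries had a peak (common-peak scaling) gave 6 higher and 2 lower at 72 h against 0 h, 5 higher and 3 lower at 6 h against 0 h, and 9 higher and 0 lower at 72 h against 6 h. Total counts gave 6 and 4, then 5 and 3, then 5 and 2. The 3 comparisons share libraries with each other and are given side by side only.

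**Figure D1:**
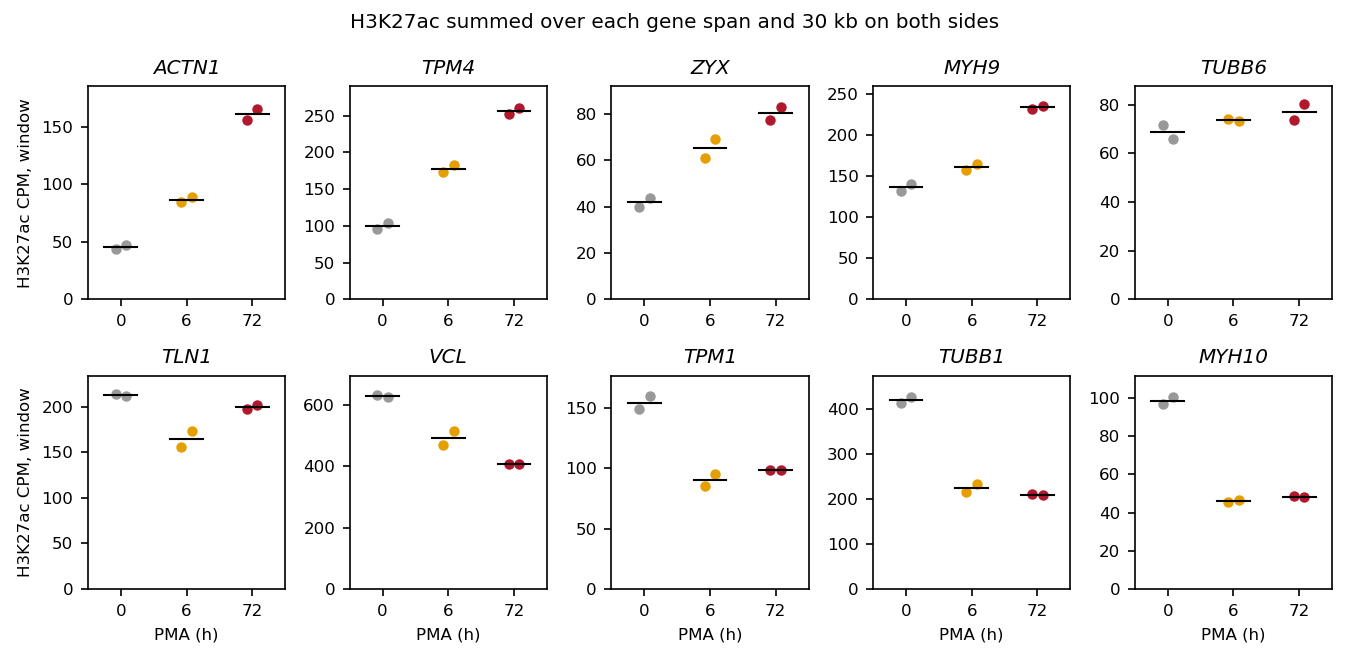
H3K27ac in CPM (y axes, each from 0) summed over the window of each gene at 0, 6 and 72 h of PMA (x axes); dots are the 2 libraries and bars their mean, and genes are ordered by their change at 72 h. The ACTN1 window went from 44.0 and 47.1 CPM at 0 h to 156 and 166 CPM at 72 h, and the MYH10 window from 96.5 and 100.2 CPM to 48.4 and 48.1 CPM.

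The myosin heavy chains moved in opposite directions. The MYH9 window (chr22:36281280-36387967 with flanks) measured 132 and 141 CPM at 0 h, 158 and 165 CPM at 6 h and 233 and 236 CPM at 72 h. Its log2 fold change at 72 h was 0.78 ± 0.069 (SE; adjusted p = 1.7e-10). The MYH10 window (chr17:8474212-8630725) measured 96.5 and 100.2 CPM at 0 h, 45.5 and 46.6 CPM at 6 h and 48.4 and 48.1 CPM at 72 h. The MYH10 windows of 0 h lay above those of both later times, which lay close together. The window fell by 1.09 ± 0.072 on the log2 scale at 6 h (adjusted p = 2e-12) and by 1.03 ± 0.069 at 72 h (adjusted p = 8.3e-13). The difference between 72 and 6 h was 0.07 (adjusted p = 0.43). Common-peak scaling gave a smaller fall at 72 h of -0.39 and called the difference between 72 and 6 h at 0.35 (adjusted p = 0.00028).

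The tropomyosins also moved in opposite directions. The TPM4 window (chr19:16067538-16103002) rose from 95.5 and 104 CPM at 0 h to 173 and 183 CPM at 6 h and 252 and 261 CPM at 72 h, a log2 fold change of 1.36 ± 0.073 at 72 h (adjusted p = 9.4e-15). TPM1 (chr15:63042747-63071915) fell from 149 and 159 CPM at 0 h to 84.8 and 94.9 CPM at 6 h and measured 98.2 and 98.6 CPM at 72 h, a log2 fold change of -0.65 ± 0.069 (adjusted p = 4.5e-09). The libraries of 0 h did not overlap those of either later time in either gene. The TPM1 difference at 72 h was -0.41 (adjusted p = 1.5e-06) under total counts and -0.01 (adjusted p = 0.87, not called) under common-peak scaling.

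ACTN1 had the largest rise of the 10 windows. The window of this actin cross-linker (chr14:68874128-68979302) measured 44.0 and 47.1 CPM at 0 h, 84.8 and 88.5 CPM at 6 h and 156 and 166 CPM at 72 h. It rose by 0.93 ± 0.074 on the log2 scale at 6 h and by 1.82 ± 0.071 at 72 h (adjusted p = 1.9e-17), and no time point overlapped another.

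Among the adhesion proteins, ZYX rose, VCL fell and TLN1 was near its starting level at 72 h. ZYX (zyxin, chr7:143381345-143391111) measured 39.8 and 43.7 CPM at 0 h, 61.1 and 69 CPM at 6 h and 77.4 and 83.0 CPM at 72 h (log2 fold change 0.94 ± 0.079, adjusted p = 5.7e-11). VCL (vinculin, chr10:73998116-74121363), with the highest sum of the 10, measured 632 and 626 CPM at 0 h, 471 and 516 CPM at 6 h and 407 and 409 CPM at 72 h (-0.62 ± 0.091, adjusted p = 7.5e-07). TLN1 (talin, chr9:35696948-35732195) measured 214 and 212 CPM, then 156 and 173 CPM, then 198 and 202 CPM. It fell by 0.37 ± 0.074 at 6 h (adjusted p = 9.5e-05), rose by 0.28 between 6 and 72 h (adjusted p = 0.0018) and at 72 h differed from 0 h by -0.09 ± 0.073 (adjusted p = 0.23). With common-peak scaling, VCL at 72 h gave 0.01 (adjusted p = 0.84) and TLN1 was called higher at 0.54. Under total counts the VCL fall was kept at -0.39 and TLN1 gave 0.14, also called higher. At 6 h neither the TLN1 fall (-0.03 and -0.01 under total counts and common-peak scaling) nor the VCL fall (-0.01 and 0.01) was called under these scalings.

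The β-tubulin windows differed in size of change. TUBB1 (chr20:59016438-59026654) fell from 413 and 428 CPM at 0 h to 215 and 233 CPM at 6 h and 210 and 209 CPM at 72 h. The fall was 1.00 ± 0.082 on the log2 scale at 72 h (adjusted p = 3.5e-11), and the difference between 6 and 72 h was -0.09 (adjusted p = 0.30). TUBB6 (chr18:12307669-12329826) measured 71.6 and 65.8 CPM, then 74.3 and 73.5 CPM, then 73.7 and 80.5 CPM, with the 72 h libraries only just above the higher 0 h library. Its log2 fold change of 0.17 ± 0.072 was called at 72 h (adjusted p = 0.033), but the highest adjusted p was 0.32 when 1 library was left out. Common-peak scaling kept the fall of TUBB1 at a smaller size (-0.37).

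**Figure D2:**
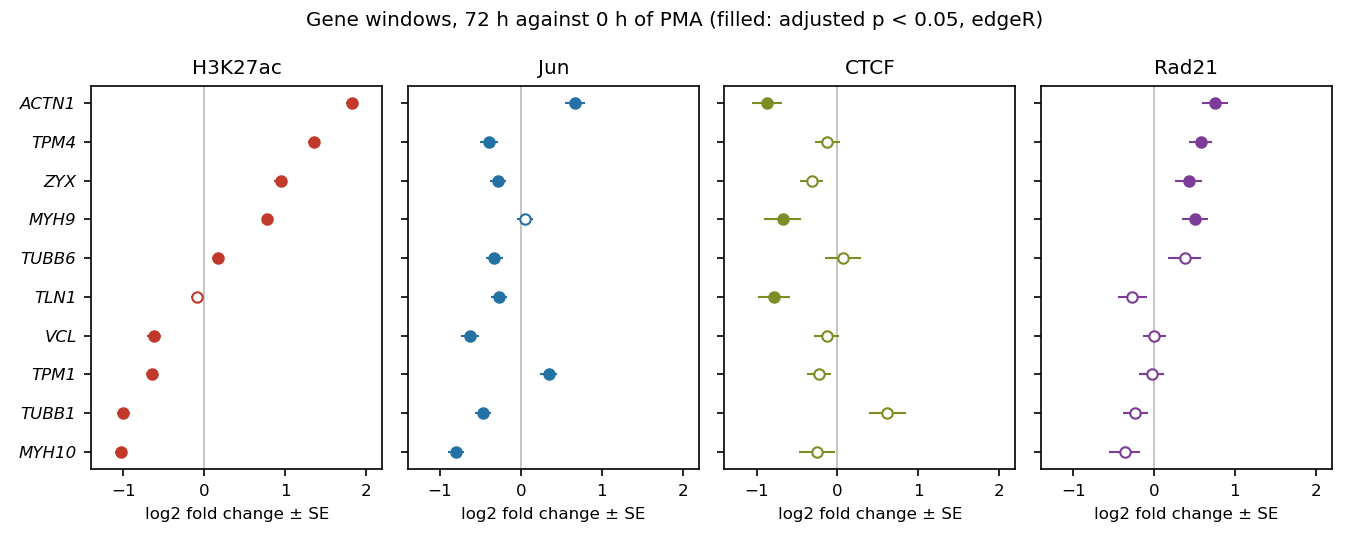
Log2 fold change ± SE of the gene windows at 72 h against 0 h (x axes) for each antibody (panels) and gene (y axis); filled points were called at an adjusted p under 0.05. H3K27ac ranged from -1.03 (MYH10) to 1.82 (ACTN1), and most Jun and CTCF points lay at or below 0.

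Within the windows, 109 of the 124 H3K27ac regions were called at 72 h against 0 h, 63 higher and 46 lower, beside 81.5% of 94865 regions tested (43.4% higher and 38.1% lower). All 124 passed the filter on low counts. Their median log2 fold change was 0.56, beside 0.18 over all regions. At 6 h 82 were called, 48 higher and 34 lower (58.6% of all regions), and at 72 h against 6 h 77 were called, 47 higher and 30 lower (63.8% of all regions, 33.1% higher and 30.8% lower). Higher regions made up 57.8% of the member calls at 72 h; with common-peak scaling they made up 76.2% of the calls, as the median over all regions then moved from 0.18 to 0.82 (0.42 under total counts). At 6 h the share of higher calls went from 58.5% to 74.4% under total counts and 75.0% under common-peak scaling.

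The genes differed in how uniform their regions were. In ACTN1 9 of 10 regions rose and none fell (median 3.22), in TPM4 12 of 13 rose and 1 fell (median 2.70), in ZYX 5 of 5 rose and in MYH9 20 of 26 rose and 4 fell (median 1.07). The VCL window had 16 regions that fell and 2 that rose of 21 (median -0.89), TUBB1 7 and 2 of 11 (median -1.10), TPM1 5 and 2 of 8 (median -1.35), and MYH10 5 and 4 of 10 (median -0.25). TLN1 had 5 that rose and 4 that fell of 11, and TUBB6 2 and 4 of 9. So every window except those of ACTN1 and ZYX held called regions moving both ways, and its sum is the balance of these.

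Regions at gene starts changed differently from regions away from them, among the members as over the whole table. At promoter windows of any gene, 19 member H3K27ac regions gave 5 higher and 12 lower (26.3% and 63.2%; median -0.28), beside 14.7% and 69.2% of all such regions (median -0.66). Away from promoters, 105 member regions gave 58 higher and 34 lower (55.2% and 32.4%; median 0.89), beside 47.0% and 34.1% of all such regions (median 0.48). Of the 9 members with a H3K27ac region at an own start, 2 rose (TPM4 and ZYX), 5 fell (MYH10, TLN1, TUBB1, TUBB6 and VCL) and 2 were not called (ACTN1 and MYH9). TPM1 had no H3K27ac region at its listed start. The only listed starts of TPM1 (chr15:63048489) and TUBB1 (chr20:59019429) lie inside their gene spans, which begin at 63042747 and 59016438. Regions at the 5′ ends of these 2 spans were therefore not counted as start regions.

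**Figure D3:**
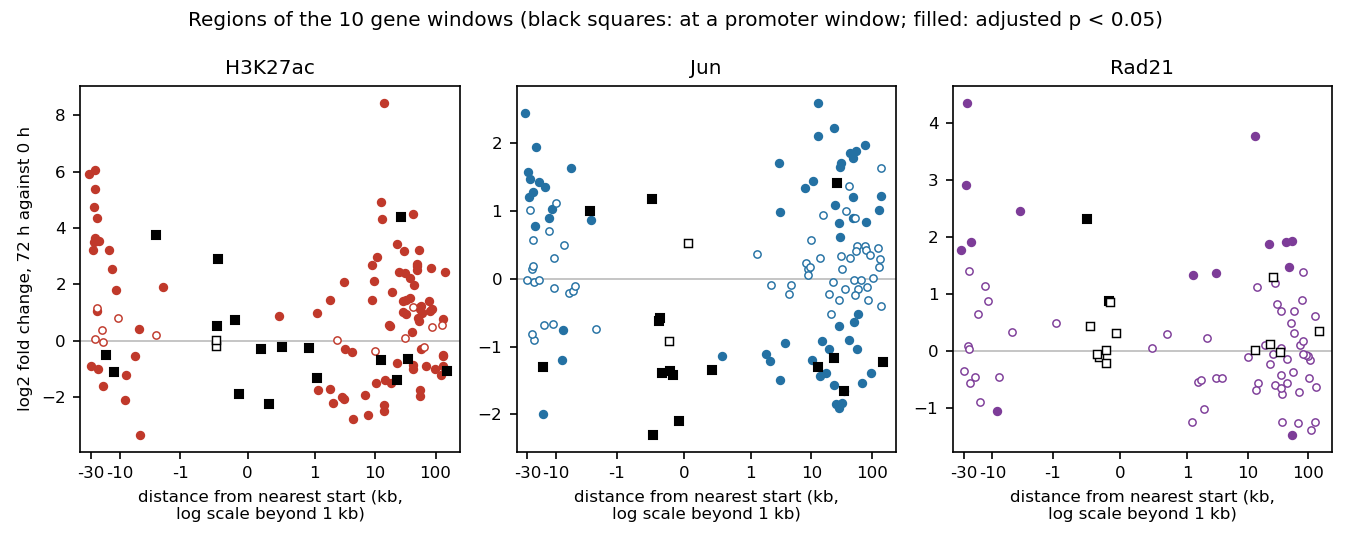
Log2 fold change at 72 h against 0 h (y axes) of each tested member region against its distance from the nearest listed start of its gene (x axes, kb, log scale beyond 1 kb, upstream to the left). Filled symbols were called and black squares overlap a promoter window; of the 19 H3K27ac regions there 12 were called lower, and of the 18 Jun regions there 13.

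The start of MYH10 lost H3K27ac in steps, while the starts of ACTN1 and MYH9 stayed at similar levels as their gene bodies and flanks gained it. At the MYH10 start (chr17:8630310-8631399, over the promoter printed above) H3K27ac measured 15.3 and 19.8 CPM at 0 h, 9.93 and 9.89 CPM at 6 h and 4.60 and 4.77 CPM at 72 h. The fall was 0.82 ± 0.156 on the log2 scale at 6 h and 1.9 ± 0.161 at 72 h (adjusted p = 5.4e-11), and no time point overlapped another. The ACTN1 start (chr14:68977288-68980188) measured 31.9 and 33.2 CPM at 0 h, 29.4 and 31.3 CPM at 6 h and 32.1 and 34.2 CPM at 72 h (0.02 ± 0.105, adjusted p = 0.84; 0.66 and called under common-peak scaling). The MYH9 start (chr22:36387729-36389138) measured 18.7 and 19.5 CPM, 18.5 and 18.6 CPM, then 17.2 and 16.6 CPM (-0.18 ± 0.118, adjusted p = 0.17; turned to 0.46 under that scaling). At the listed TUBB1 start (chr20:59019473-59020022) H3K27ac fell from 21.5 and 22.9 CPM at 0 h to 6.37 and 8.91 CPM at 6 h and 4.67 and 4.66 CPM at 72 h (-2.25 ± 0.158, adjusted p = 1.5e-12). The authors' peak lists had a peak there in both 0 h libraries and in none later. The ZYX start (chr7:143379721-143382054) rose from 38.1 and 41.9 CPM to 55.7 and 60.4 CPM at 72 h (0.54 ± 0.109, adjusted p = 7.9e-05). The smaller falls at the starts of VCL (-0.22 ± 0.103, adjusted p = 0.0496), TLN1 (-0.28 ± 0.100, adjusted p = 0.012) and TUBB6 (-0.27 ± 0.123, adjusted p = 0.044) each lost their call when 1 library was left out. They turned to 0.42, 0.36 and 0.36 under common-peak scaling.

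TPM4 showed different changes at its separate start sites. The region with the largest rise chosen by the naming rule (chr19:16064168-16065902, centred at -2503 bases from the upstream start) had 62 and 65 H3K27ac counts before PMA, 331 and 410 after 6 h and 1227 and 1377 after 72 h. In CPM these were 3.52 and 3.42, then 23.2 and 20.2, then 44.4 and 50.1, and the log2 fold change was 2.63 ± 0.155 at 6 h and 3.76 ± 0.146 at 72 h (adjusted p = 9.1e-18). The overlapping Jun region (chr19:16063809-16065666, singled out afterwards), which also covers a promoter window of the noncoding gene LINC01855, measured 18.3 and 18.7 CPM at 0 h, 38.9 and 53.6 CPM at 6 h and 38.4 and 35.7 CPM at 72 h. At the upstream start (chr19:16066719-16067463, singled out after its values were seen) H3K27ac went from 3.12 and 2.74 CPM to 12.7 and 15.1 CPM and then 22.0 and 21.7 CPM (2.90 ± 0.164, adjusted p = 1.8e-14). The downstream start (chr19:16075671-16076949) began higher, at 15.1 and 19.0 CPM, and reached 29.7 and 27.1 CPM (0.74 ± 0.130, adjusted p = 1.5e-05). Jun moved in opposite directions at these starts. At the upstream start (chr19:16066774-16067360) Jun rose from 5.81 and 5.42 CPM at 0 h to 11.1 and 12 CPM at 6 h and 13.4 and 11.9 CPM at 72 h (1.17 ± 0.226, adjusted p = 0.00019). The promoter sequence printed above overlaps only the end of this Jun region, and its CArG match lies just past that end. That sequence holds no AP-1 match, but most of the Jun region lies outside it. At the downstream start (chr19:16076103-16076754) Jun fell from 40.2 and 36.4 CPM to 11.8 and 18.5 CPM and then 9.47 and 8.37 CPM (-2.1 ± 0.204, adjusted p = 7e-08). Rad21 at the upstream start (chr19:16066797-16067294) went from 11 and 10 counts before PMA to 73 and 44 after 72 h (2.33 ± 0.40, adjusted p = 0.00025). It was not called at the downstream start (0.87 ± 0.360, adjusted p = 0.081).

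**Figure D4:**
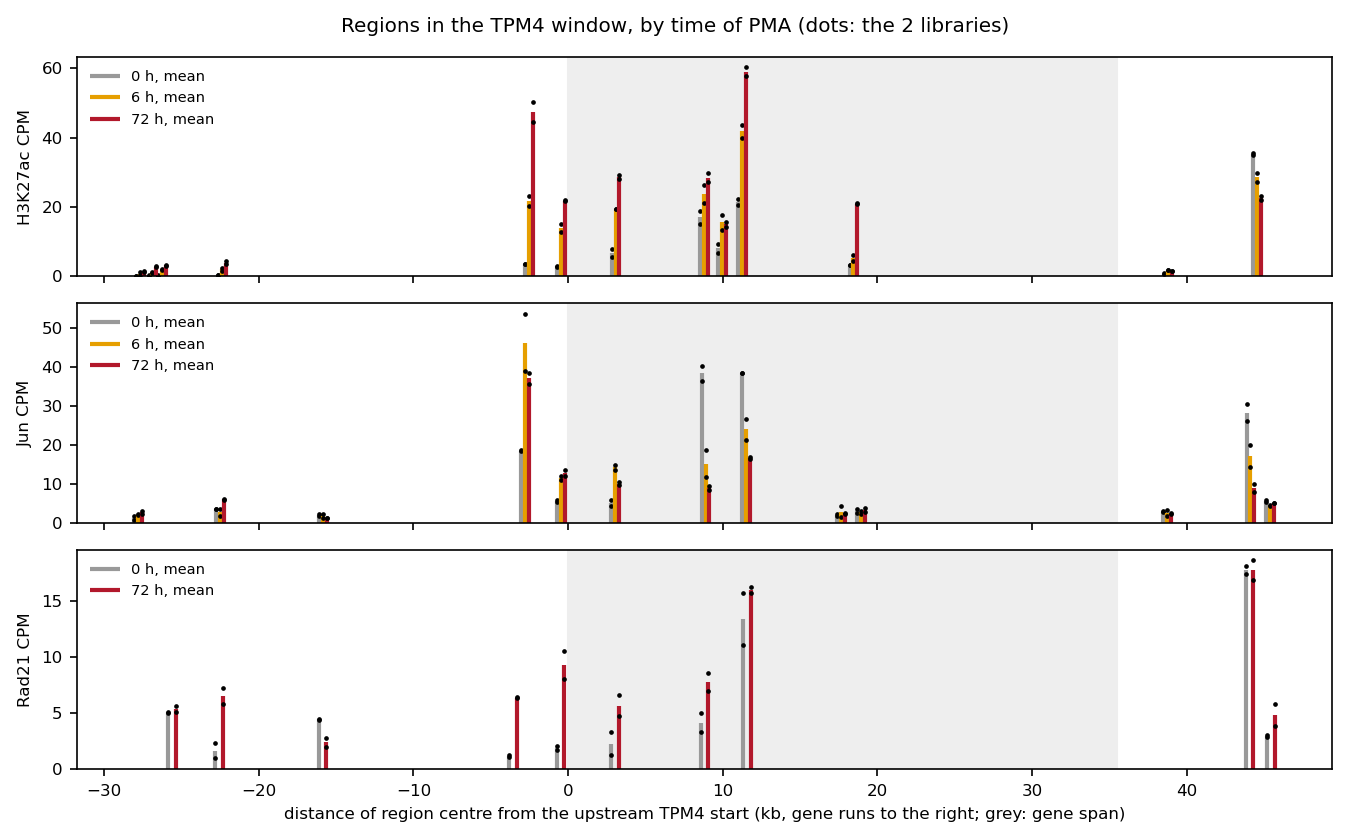
CPM (y axes, each from 0) of H3K27ac, Jun and Rad21 regions in the TPM4 window against distance from the upstream start (x axis, kb; the grey band is the gene span); lines are group means and dots the 2 libraries. The regions just before the upstream start were higher at 72 h than at 0 h in all 3 panels, and Jun at the downstream start fell from 40.2 and 36.4 CPM to 9.47 and 8.37 CPM.

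Several regions away from the listed starts of their own gene rose from near no signal, in the members with the largest window gains and also in TPM1. Upstream of ACTN1 (chr14:69004573-69005244, centred at -25606 bases from the nearest listed start, negative being upstream) there were 2 and 2 H3K27ac counts before PMA, 46 and 55 after 6 h and 199 and 224 after 72 h. The log2 fold change was 6.06 ± 0.395 (adjusted p = 3.1e-13). Beside it (chr14:69005433-69006635) Jun went from 6.39 and 6.42 CPM at 0 h to 24.6 and 40.3 CPM at 6 h and 18.6 and 16.8 CPM at 72 h. Jun there was highest at 6 h, rising by 2.35 ± 0.250 (adjusted p = 1.1e-06) and then falling by 0.89 between 6 and 72 h (adjusted p = 0.0035). Rad21 at the same place (chr14:69005368-69005813) had 1 and 2 counts before PMA and 51 and 23 after 72 h, a ratio of 22.8 with a 95% counting interval from 7.49 to 113 (adjusted p = 0.00012). The Jun and Rad21 regions here, and the Rad21 regions of MYH9 and TPM1 below, were singled out after their values were seen, because they overlap or adjoin named H3K27ac rises.

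Within MYH9 (chr22:36374533-36375084, 13158 bases after the start) H3K27ac went from 6 and 8 counts before PMA to 60 and 72 after 6 h and 230 and 196 after 72 h (4.32 ± 0.311, adjusted p = 2.4e-12). Rad21 there (chr22:36374675-36374964) had 1 and 2 counts before PMA and 33 and 16 after 72 h, a ratio of 15.1 with a counting interval from 4.87 to 75.6 (adjusted p = 0.0018). A Jun region at this place, also singled out afterwards, rose from 0.871 and 2.57 CPM to 7.01 and 7.86 CPM (2.1 ± 0.365, adjusted p = 6.1e-05). The named Jun rise of MYH9 lay further in (chr22:36364234-36364749), from 1.45 and 1.43 CPM to 7.34 and 6.26 CPM (2.23 ± 0.341, adjusted p = 1.5e-05).

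The TPM1 window combined a distant rise with falls inside the gene. Upstream of TPM1 (chr15:63015058-63016864, centred at -32528 bases from the listed start) H3K27ac had 5 and 18 counts before PMA, 82 and 78 after 6 h and 1046 and 1077 after 72 h (5.93 ± 0.241, adjusted p = 2.3e-17). Jun there (chr15:63015295-63016318) measured 3.77 and 3.14 CPM, then 6.10 and 6.90 CPM, then 20.2 and 17.6 CPM (2.45 ± 0.243, adjusted p = 9.3e-08), and Rad21 went from 6 and 11 counts to 44 and 22 (1.77 ± 0.519, adjusted p = 0.017). Jun here was highest at 72 h, whereas at the ACTN1 site it was highest at 6 h. Inside the gene (chr15:63052637-63052999) H3K27ac fell from 11.6 and 11.4 CPM to 5.11 and 4.63 CPM and then 2.06 and 1.31 CPM (-2.77 ± 0.214, adjusted p = 1e-11), and a larger neighbouring region, singled out afterwards, fell from 84.8 and 88.3 CPM to 22.3 and 21.4 CPM.

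The adhesion genes and the β-tubulins held further changed regions, some rising from near no signal and others rising or falling from higher levels. Upstream of ZYX (chr7:143356641-143358202, centred at -23924 bases from the start) H3K27ac had 10 and 12 counts before PMA, 30 and 16 after 6 h and 341 and 342 after 72 h (4.35 ± 0.302, adjusted p = 1.1e-12). Downstream of ZYX a smaller region (chr7:143395384-143395804, singled out afterwards) had 0 counts in both 0 h libraries and 52 and 62 at 72 h, at least 25.2-fold higher against a floor of 3 counts over the group. The bound covers counting error only. The upstream ZYX site gained mainly after 6 h. In TLN1 (chr9:35722111-35722726) H3K27ac went from 2.78 and 1.47 CPM to 1.47 and 3.54 CPM and then 9.55 and 9.07 CPM (2.14 ± 0.275, adjusted p = 1.2e-07), with 0 and 6 h overlapping. In VCL one region fell from 67.1 and 66.8 CPM to 33.9 and 31.9 CPM and then 15.7 and 11.9 CPM (chr10:74011248-74012714; -2.27 ± 0.121, adjusted p = 4.9e-15). Another rose from 28.5 and 25.6 CPM to 45.7 and 52.8 CPM and then 52.4 and 59.4 CPM (chr10:74078337-74081013; 1.05 ± 0.113, adjusted p = 5.3e-09). At the rising VCL region Jun rose as well (chr10:74079286-74080326; 0.83 ± 0.193, adjusted p = 0.0011), and its edge overlaps the VCL CTCF region described further on. Before TUBB6, neighbouring regions went opposite ways. One rose from 6.13 and 6.32 CPM to 21.2 and 22.2 CPM (chr18:12295406-12297014; 1.80 ± 0.143, adjusted p = 1.6e-11). The other fell from 9.03 and 8.43 CPM to 0.868 and 0.837 CPM (chr18:12302650-12303318; -3.35 ± 0.262, adjusted p = 1.3e-11). The called rise of TUBB1 (chr20:59014286-59015004) was small at 0.42 ± 0.133 (adjusted p = 0.0057) and was lost without the second 72 h library.

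**Figure D5:**
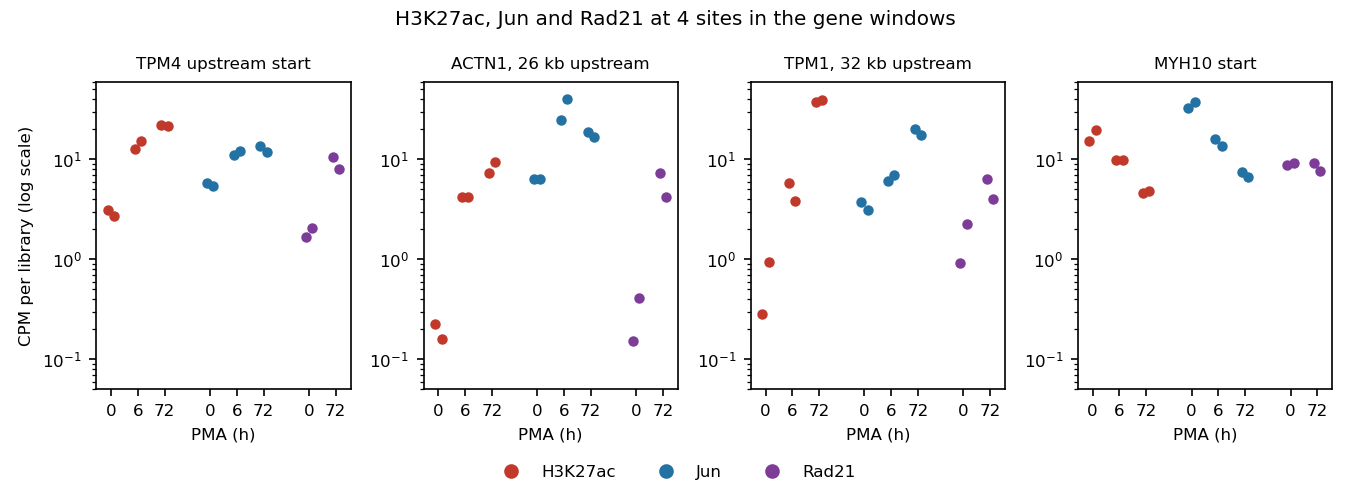
CPM of each library (y axes, log scale) by hours of PMA (x axes) for H3K27ac, Jun and Rad21 at the upstream TPM4 start, about 26 kb before ACTN1, about 32 kb before the listed start of TPM1, and at the MYH10 start. For ACTN1 the H3K27ac region plotted is not the one valued in the text (chr14:69004573-69005244) but a neighbour slightly further from the start. All 3 rose at the first 3 sites, while at the MYH10 start H3K27ac and Jun fell and Rad21 measured 8.84 and 9.21 CPM at 0 h and 9.09 and 7.68 CPM at 72 h.

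At 72 h against 0 h, Jun regions of the 10 genes were called at about the share of all regions, with rises and falls in similar number. Of 138 regions 136 were tested, and 75 were called at 72 h against 0 h, 37 higher and 38 lower (53.7% of all tested regions called, 28% higher and 25.7% lower). At 6 h 52 were called, 27 higher and 25 lower (25.3%), and at 72 h against 6 h 37, 12 higher and 25 lower (26.2%). Calls at 72 h came to 49 without the first and 52 without the second 72 h library, from 75. At 6 h the count was 34 without either 0 h library, from 52. At 72 h against 6 h it was 7 without the first and 11 without the second 72 h library and 20 without the second 6 h library, from 37. The direction depends on the scaling: higher regions made up 49.3% of the calls at 72 h, 71.6% under total counts and 80.2% under common-peak scaling. The median of all regions moved from 0.17 to 0.73 and 0.94. At 6 h the share went from 51.9% to 67.9% and 65.4%, and at 72 h against 6 h from 32.4% to 74.1% and 94.6%.

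Jun fell at most of the start sites. At promoter windows 18 member regions gave 3 higher and 13 lower (16.7% and 72.2%; all such regions 6.97% and 67.3%), and away from them 118 gave 34 higher and 25 lower (28.8% and 21.2%; all such regions 29.5% and 22.8%). Of the 9 members with a Jun region at an own listed start, 8 fell at the strongest such region and TPM1 was not called (-0.91, adjusted p = 0.066). TUBB1 had no Jun region at its listed start. Across the 5′ end of its gene span (chr20:59016419-59017142) Jun was called higher (0.87, adjusted p = 0.0048), a call lost under 2 alternatives. The TPM4 fall is that of its downstream start, and Jun rose at the upstream one as given above; a weaker region at another ACTN1 start was not called (0.53, adjusted p = 0.44). At the MYH10 start (chr17:8630736-8631644) Jun fell from 32.4 and 37.4 CPM to 16.0 and 13.6 CPM and then 7.39 and 6.72 CPM (-2.31 ± 0.192, adjusted p = 1.5e-08). The VCL start (chr10:73997535-73998282) went from 36.7 and 39.1 CPM to 14.9 and 14.5 CPM at 72 h (-1.37 ± 0.182, adjusted p = 2.9e-06). The ZYX start (chr7:143380664-143381365), where H3K27ac rose, went from 37.6 and 42.7 CPM to 16.7 and 14.0 CPM (-1.39 ± 0.185, adjusted p = 2.9e-06). The TUBB6 start fell by 1.34 ± 0.195 (adjusted p = 8.4e-06) and the ACTN1 start by 1.42 ± 0.301 (adjusted p = 0.00046). The falls at the MYH9 start (-0.62 ± 0.204, adjusted p = 0.015) and the TLN1 start (-0.59 ± 0.210, adjusted p = 0.023) turned to 0.16 and 0.19 under common-peak scaling and lost their call without either 72 h library.

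Other Jun regions peaked at 6 h. Upstream of MYH10 (chr17:8649290-8650032, centred at -18936 bases from the start) Jun measured 2.03 and 2.43 CPM at 0 h, 16.3 and 18.2 CPM at 6 h and 5.59 and 6.47 CPM at 72 h. It rose by 2.95 ± 0.292 at 6 h (adjusted p = 5e-07) and fell by 1.51 ± 0.222 between 6 and 72 h (adjusted p = 5.2e-05), while both Jun and H3K27ac at the MYH10 start fell. A VCL intragenic region (chr10:74027154-74028136, singled out afterwards) followed the same course, from 9.58 and 12.6 CPM to 31.0 and 43.2 CPM and then 17.1 and 16.9 CPM. By contrast, upstream of TUBB6 (chr18:12295307-12296687) Jun rose to 15.6 and 17.4 CPM at 6 h from 7.40 and 8.42 CPM and was at 16.4 and 15.8 CPM at 72 h.

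Summed over the windows, Jun was called in 9 of 10 genes at 72 h, 2 higher (ACTN1 and TPM1) and 7 lower, beside 74.4% of all gene windows (27.8% higher and 46.6% lower). Under total counts 5 were called and under common-peak scaling 8, in both cases all higher. The ACTN1 sum measured 36.3 and 33.1 CPM at 0 h, 59.0 and 79.0 CPM at 6 h and 58.5 and 52.2 CPM at 72 h (0.67 ± 0.123, adjusted p = 2.5e-05) and was higher under all 3 scalings. The MYH10 sum went from 71.3 and 76.8 CPM to 41.7 and 43.6 CPM (-0.80 ± 0.099, adjusted p = 7.7e-08) and gave -0.23 and -0.02, neither called, under the other scalings. The TPM1 call (0.34 ± 0.103, adjusted p = 0.0042) was lost by DESeq2 (adjusted p = 0.10). At 6 h 3 windows were called, 1 higher and 2 lower (48% of all windows, 19.7% higher and 28.3% lower), and at 72 h against 6 h 8, 2 higher and 6 lower (54.2%; 18.6% higher and 35.6% lower). The split of these calls also turned with the scaling, to 2 higher and 1 lower and to 3 higher and 1 lower at 6 h, and to 2 and 6 calls, all higher, at 72 h against 6 h, under total counts and common-peak scaling. Without the second 6 h library the counts became 6 and 4, and the 8 calls became 5 and 2 without the first and the second 72 h library.

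Jun and H3K27ac were measured in separate libraries, so their calls can be set beside each other. Each region was set beside its strongest overlapping region (by at least 1 base), the one with the highest mean CPM. Of 30 member H3K27ac regions whose strongest overlapping Jun region was called higher at 72 h, 29 were called higher (96.7%, as over all regions). Of 32 whose strongest overlapping Jun region was called lower, 22 were called lower (68.75%, beside 71.1% over all such regions) and 8 higher (25%, beside 9.50%). At the downstream TPM4 start and the ZYX start Jun was called lower and H3K27ac higher. These shares are descriptions and were not tested.

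Rad21 gained at a small part of the regions. Of 93 regions 87 were tested and 16 were called at 72 h against 0 h, 14 higher and 2 lower (23.3% of all tested regions, 15.4% higher and 7.91% lower). The higher ones lay in TPM4 (4), MYH9 (3), ACTN1 (3), TPM1 (2), VCL (1) and ZYX (1), and both lower ones in VCL. At promoter windows 2 of 14 tested regions rose and none fell (all such regions 4.96% and 3.61%). Away from them 12 of 73 rose and 2 fell (16.4% and 2.74%, beside 16.5% and 8.37% of all such regions). Of the 14 member Rad21 regions whose strongest overlapping Jun region was called higher, 10 were called higher (71.4%, beside 68.6% over all such regions). Of 27 whose strongest overlapping H3K27ac region was called higher, 12 were called higher (44.4%, beside 49.7%). The count of calls came to 8 without the first and 9 without the second 72 h library, and to 8 by DESeq2, all higher in each case.

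The Rad21 window sums rose in ACTN1, TPM4, MYH9 and ZYX. ACTN1 measured 26.8 and 29.1 CPM at 0 h and 51.2 and 42.8 CPM at 72 h (0.76 ± 0.162, adjusted p = 0.00032), TPM4 57.6 and 51.8 CPM and then 82.6 and 81.4 CPM (0.58 ± 0.142, adjusted p = 0.0015). MYH9 changed by 0.51 ± 0.155 (adjusted p = 0.011) and ZYX by 0.43 ± 0.167 (adjusted p = 0.049). These 4 of 10 windows, beside 28.3% of all gene windows (14.4% higher), are the ones with the largest H3K27ac gains; leaving out the first 72 h library left 0 calls and the second 1, and DESeq2 called ACTN1 and TPM4. Under total counts ACTN1 and TPM4 kept their call, MYH9 (adjusted p = 0.090) and ZYX (adjusted p = 0.24) lost it, and MYH10 (-0.52, adjusted p = 0.037) and TUBB1 (-0.40, adjusted p = 0.045) were called lower. ZYX was also lost under common-peak scaling (adjusted p = 0.065). Elsewhere Rad21 rose inside VCL near its start (chr10:73999087-73999629), from 4.73 and 6.35 CPM to 14.4 and 13.3 CPM (1.34 ± 0.300, adjusted p = 0.0026). It also rose after TPM1 (chr15:63097112-63097670), from 2.29 and 4.71 CPM to 9.82 and 9.14 CPM (1.48 ± 0.372, adjusted p = 0.0062; lost without the first 0 h library). The starts of MYH10 (-0.10, adjusted p = 0.83) and VCL (-0.05, adjusted p = 0.91) had no called change in Rad21 while Jun fell there.

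Few CTCF regions of the 10 genes were called. Of 58 regions 54 were tested, and 41 of the 58 (70.7%, beside 60.03% of all CTCF regions) overlapped a Rad21 region. No region was called by edgeR at 6 h against 0 h (2.65% of all regions; 9 of the 54 had an unadjusted p under 0.05, and DESeq2 called 0). At 72 h against 0 h 3 were called, 1 higher and 2 lower (6.79%; 4.07% higher and 2.72% lower), and at 72 h against 6 h 1 was, higher (2.18%; 0.451% higher and 1.73% lower). A region in VCL (chr10:74080938-74081628) fell from 42.6 and 28.6 CPM at 0 h to 17.1 and 14.2 CPM at 72 h (-1.20 ± 0.277, adjusted p = 0.021). One in ACTN1 (chr14:68911518-68912049) fell from 18.7 and 33.9 CPM to 11.6 and 11.8 CPM (-1.14 ± 0.301, adjusted p = 0.034). The third, before TPM4 (chr19:16044692-16044937, outside the naming rule for its low level), rose from 5 and 2 counts to 27 and 42 (2.51 ± 0.664, adjusted p = 0.034). Under total counts 7 regions were called and under common-peak scaling 4, in both cases all higher, and both falls lost their call. DESeq2 called 0 of the 54, and so did each fit without 1 of the 0 h or 72 h libraries, whereas leaving out the first or the second 6 h library gave 15. The strong CTCF site at the listed TPM1 start (chr15:63047853-63048896) measured 56.5 and 60.4 CPM at 0 h, 47.1 and 58.4 CPM at 6 h and 51.3 and 44.2 CPM at 72 h, with overlapping groups (-0.29, adjusted p = 0.46).

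CTCF window sums were called lower at 72 h in ACTN1 (-0.87 ± 0.181, adjusted p = 0.0021), TLN1 (-0.79 ± 0.200, adjusted p = 0.0082) and MYH9 (-0.67 ± 0.229, adjusted p = 0.039), beside 21.2% of all gene windows (6.96% higher and 14.2% lower). ACTN1 measured 65.1 and 78.9 CPM at 0 h, 42.9 and 51.5 CPM at 6 h and 32.2 and 45.2 CPM at 72 h. The 0 h libraries lay above all later ones, in the gene whose H3K27ac and Rad21 sums rose. No window was called by edgeR at 6 h (4.87% of all windows, 3.15% higher and 1.72% lower; 3 of 10 at an unadjusted p under 0.05, DESeq2 0) or at 72 h against 6 h (6.52%; 0 of 10 unadjusted, DESeq2 0). The 3 calls at 72 h became 0 or 1 without any 1 of the 0 h or 72 h libraries and 5 without either 6 h library, and DESeq2 called 1, ACTN1. Under total counts none of the 3 was called and TUBB1 was called higher (0.85, adjusted p = 0.039). Common-peak scaling called ACTN1 lower (-0.53, adjusted p = 0.042) and TUBB1 higher (0.96, adjusted p = 0.0081).

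The authors' peak lists, called per library, held more H3K27ac and Jun peaks at 72 h. H3K27ac peaks in the 10 windows numbered 61 ± 7.07 (SD, n = 2) before PMA, 70 ± 7.07 after 6 h and 103.5 ± 2.12 after 72 h, a ratio of 1.70 between 72 h and 0 h beside 1.55 over all peaks. The H3K27ac libraries of 72 h were the deepest of that antibody (26216577 and 27266241 counts, against 19963875 and 21772218 at 0 h). The part of depth in the peak numbers was not tested. ACTN1 went from 1 and 2 peaks to 7 and 7 and then 13 and 12. TPM4 went from 4 and 7 to 4 and 6 and then 13 and 14, and MYH9 went from 7 and 8 to 9 and 9 and then 23 and 18. Jun peaks went from 40.5 ± 0.707 to 106 ± 11.3 (ratio 2.62, beside 2.87 over all peaks), with deeper libraries at 72 h. Rad21 peaks were 38 ± 1.41 and 37.5 ± 3.54 (ratio 0.99, beside 0.63), and CTCF peaks 25.5 ± 4.95, 15 ± 4.24 and 27.5 ± 10.6. All Rad21 peaks numbered 34680 and 59005 at 0 h and 33048 and 25687 at 72 h, so the 0.63 rests on 0 h libraries that differed widely. In the authors' deposited table the 124 H3K27ac regions were labelled 23 late and 4 early rises, 13 early and 1 late falls and 83 static (66.9%, beside 64.3% of all regions). Late rises made up 18.5%, beside 23.1%, and early falls 10.5%, beside 8.08%. The authors' deposited table gave the 138 Jun regions as 6 late rises, 1 early fall (0.725%, beside 3.17%) and 131 static (94.9%, beside 89.8% of all). It gave the 93 Rad21 regions as 2 rises and 91 static (97.8%, beside 98.2%), and all 58 CTCF regions as static (98.7% of all). These labels leave more regions static than the calls above, so they follow another criterion and the 2 sets of counts are not alike.

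Of 56 other cytoskeleton genes taken as a list, 55 had a H3K27ac region. At 72 h against 0 h 41 of these windows (74.5%) were called, 14 higher and 27 lower. Over all windows 87.9% were called, 35.4% higher and 52.5% lower. The median of the list was -0.14, beside -0.30 over all windows. The adhesion and contraction genes FERMT2 (kindlin-2, 5.17 ± 0.407), TLN2 (a second talin, 3.97 ± 0.121), CSRP1 (a LIM protein of actin bundles, 2.43 ± 0.086) and MYLK (myosin light chain kinase, 2.12 ± 0.080) had large rises on the log2 scale. CNN2 (calponin 2, -1.43 ± 0.066), TAGLN (transgelin, -1.05 ± 0.066) and ACTG1 (cytoplasmic γ-actin, -0.91 ± 0.073) fell. Jun was called in 50 of 56 windows (89.3%, beside 74.4% of all windows), 7 higher and 43 lower (median -0.62, beside -0.25 over all windows). CTCF was called in 15 (26.8%, beside 21.2% of all windows), 3 higher and 12 lower. Rad21 was called in 8 (14.3%, beside 28.3%), 4 each way. The counts of this list are given under TMM scaling only. These 7 genes were picked from the list after their values were seen, and the counts describe the list without setting it apart from other genes.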

How the data were processed

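CUT&RUN libraries of K562 cells were grouped by antibody and time of PMA from their titles, 22 libraries in 11 groups. The deposited tables hold raw counts per region and library, made by the authors; the submitters' processing notes list Trim Galore 0.4.3, BWA 0.7.17, SAMtools 1.9, deepTools 3.0.1, MACS2 and bedtools 2.26, and both hg19 and hg38. Regions run past the hg19 lengths of chromosomes 17 and 20, so coordinates were read as GRCh38 and are printed 1-based; exon and intron positions were not used here. In the per-library peak lists deposited by the authors, which give −log10 p-values and q-values and a fold enrichment (ratio) per peak, −log10 q of at least 10 was tried as a stricter limit. The authors' class labels of the regions, per the file headers, were copied as deposited, without their log2 values.

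Counts were tested with edgeR 4.0.16 (R 4.3.3; filterByExpr by group, TMM, glmQLFit and glmQLFTest), all time points of an antibody in 1 fit, Benjamini-Hochberg over all tested regions; gene windows were counts summed over regions for all RefSeq genes, with the same library factors. SE is the log2 fold change divided by the square root of F. Of 200 simulated 4-fold changes at 72 h against 0 h, 182 of the H3K27ac, 168 of the Jun, 173 of the CTCF and 152 of the Rad21 regions were recovered in fits of 94865, 132947, 58156 and 83750 regions. The changed regions were drawn above a minimum mean count, all others were left unchanged, and the fit was given the library factors used. Recovery among weaker regions or with uncertain scaling was not tested. Alternatives were total counts, scaling on regions where all libraries had a peak (common-peak scaling), no mitochondrial chromosome, a mean count of at least 50, no filter, a replicate block, only 2 time points, each library left out, and DESeq2 1.42.0.

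Named regions were, per gene and antibody, the strongest at the gene's promoter window, and the largest rise and fall called at 72 h with separated libraries and a level at or above the median. The members and lists were chosen with earlier results of these data known. One megakaryocyte marker is not reported here.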

Additional observations from a re-analysis of the deposited data

How the results depend on the processing

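With 2 libraries a group, precision rests on their number and on depth, which was lowest for CTCF and Rad21. Over the alternatives 232 values of the counts and window results stayed within their limits and 47 moved; of the named regions' values 861 kept direction and call, 66 lost the call, 8 gained it and 8 turned. The labels do not say whether the replicate numbers pair the libraries. Correlations of replicate differences between times ran from -0.003 to 0.13, which cannot settle it. With the replicate block the CTCF regions called at 72 h against 0 h went from 3 to 9. The CTCF windows at 6 h went from 0 to 1, and other counts stayed within 1.5 times. The cause of these changes was not tested.

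Jun regions at 72 h against 6 h gave 21 calls by DESeq2 (37 as reported). Under total counts, Jun windows gave 5 calls at 72 h against 0 h and 2 at 72 h against 6 h, CTCF regions 7 at 72 h against 0 h and 6 at 72 h against 6 h, and CTCF windows 1 (higher) at 72 h against 0 h. With only 2 time points CTCF regions gave 14 at 72 h against 0 h; with DESeq2 they gave 0 there and 0 at 72 h against 6 h, and CTCF windows 1. A mean count of at least 50 gave 0 CTCF regions at 72 h against 6 h and 2 Rad21 regions. DESeq2 gave 8 Rad21 regions and 2 Rad21 windows. Keeping only peaks at or over 10 in −log10 q gave a Rad21 ratio of 0.48 between 72 h and 0 h.

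With 1 library left out, calls ranged as follows. Jun regions gave 34 to 46 at 6 h against 0 h, 49 to 77 at 72 h against 0 h and 7 to 36 at 72 h against 6 h, and Jun windows 2 to 6 at 6 h against 0 h and 2 to 8 at 72 h against 6 h. CTCF regions gave 0 to 1 at 6 h against 0 h, 0 to 15 at 72 h against 0 h and 0 to 1 at 72 h against 6 h, and CTCF windows 0 to 1 and 0 to 5 in the first 2 comparisons. Rad21 regions gave 8 to 15 and Rad21 windows 0 to 5.

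Directions at 72 h against 0 h turned with common-peak scaling for H3K27ac at the starts of MYH9 (0.46), VCL (0.42), TLN1 (0.36) and TUBB6 (0.36) and at a region before TLN1 (chr9:35748086-35749969, over the GBA2 and RGP1 starts; -0.49 as reported, 0.15), and for Jun at the starts of MYH9 (0.16) and TLN1 (0.19). The VCL start also turned under total counts (0.011).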
